A study of Mus musculus with 6 samples.

Results

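Gpihbp1-positive capillary endothelial cells of the C3(1)-Tag mouse mammary gland were followed through Prepuberty, DCIS and Tumor disease states. A cell was taken as a member when it carried at least 1 unique molecular identifier (UMI, a tag that counts 1 captured RNA molecule) of at least 2 of the 3 endothelial genes Pecam1, Cdh5 and Cldn5, together with Gpihbp1. It also had to have no UMI of the venous genes Ackr1 and Selp, the epithelial gene Epcam or the leukocyte gene Ptprc. Of 22244 cells that passed quality limits (at least 200 detected genes and under 10% mitochondrial UMIs, from 23835 deposited barcodes), 861 were members, out of 1891 endothelial cells by the same 3 genes. The members were thus chosen by their UMIs of these 8 genes, whose levels are given as a description and were not tested.

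The single-cell RNA-seq data came from 6 droplet libraries (10x Genomics, 3′ tags), 2 for each disease state. Every mouse was a female carrying C3(1)-Tag, a transgene that places the SV40 large T antigen under the C3(1) promoter, in the FVB/NJ background, so the Prepuberty libraries carried the transgene too. Prepuberty glands were taken at 5 weeks, DCIS glands (mouse lesions named after human ductal carcinoma in situ) at 14 weeks and Tumor tissue at more than 18 weeks. Prepuberty and DCIS libraries were made from whole gland and Tumor libraries from the tumour itself, and the study's methods name an overnight collagenase and hyaluronidase digestion for the glands but a tumour dissociation kit for the tumours, whereas the labels give 1 digestion for all samples. State, age, tissue and dissociation therefore cannot be told apart in any comparison with Tumor. The labels do not say whether the libraries of a state came from separate mice, so p-values measure the spread between these libraries, which may be technical.

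Gpihbp1 is the capillary endothelial protein that binds lipoprotein lipase, carries it across the endothelial cell and holds it on the vessel wall, where the enzyme releases fatty acids from lipoproteins. The fatty acids are then taken up by the endothelium and the tissue behind it, with Cd36 and the fatty acid binding proteins among the transporters. In the mammary gland such capillaries run through the fat pad that surrounds the ducts. Growing capillaries are led by tip cells, which respond to vascular endothelial growth factor (VEGF) through Kdr and Flt1, express genes such as Apln and Esm1 and lay down new basement membrane.

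The label was checked against genes that the rule did not use. In CPM, the UMIs of a gene scaled to the summed UMIs of a library's members, the endothelial factor Egfl7 was at 896 and 1252 in Prepuberty, 921 and 1495 in DCIS, and 1366 and 1334 in Tumor. Cd300lg, a capillary surface protein, was between 91.0 and 208 CPM in all 6 libraries and at most 0.43 CPM in the cells without any of the 3 endothelial genes. Capillary Car4, a carbonic anhydrase, was lower, from 10.4 CPM in Tumor 1 to 59.1 CPM in Tumor 2. Not every capillary gene held its level in Tumor. Fabp4, Cd36 and Rgcc were lower there than in DCIS, as given below, and Cd36 was found in 5 of 39 Tumor 1 members and 7 of 16 Tumor 2 members. Venous Sele and lymphatic Prox1 and Lyve1 had at most 6.94, 3.51 and 7.90 CPM, but other venous and lymphatic genes were not absent. Venous Vwf stood at 90.2 and 110 CPM in Tumor members and at 14.7 CPM or less in the gland, Vcam1 at up to 44.3 CPM in the gland and 0 in Tumor, and lymphatic Ccl21a at 132 CPM in Prepuberty 1 and 7.24 CPM or less elsewhere. Arterial genes were present as well, with Hey1 at 21.7 to 86.7 CPM, Efnb2 at 31.2 to 211 CPM and Gja4 at 2.94 to 104 CPM, so members with arterial transcripts were not kept out by the rule. The T antigen transcript was at 0.878 CPM in Prepuberty 1 and 3.47 CPM in Tumor 1, with no UMI in the members of the other 4 libraries.

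Gpihbp1 itself, on chromosome 15 from 75596628 to 75599481 (+ strand, GRCm38), was at 763 and 511 CPM in Prepuberty members, 1107 and 934 CPM in DCIS members, and 2733 and 1106 CPM in Tumor members. Cldn5, a tight junction claudin, was at 2354 and 2426 CPM in Prepuberty, 1604 and 2192 CPM in DCIS, and 590. and 431 CPM in Tumor. Pecam1, an endothelial adhesion molecule, ran the other way at 481, 484, 487, 444, 815 and 1444 CPM in the same order of libraries. A member at the edge of the rule had exactly 1 Gpihbp1 UMI. There were 58, 65, 16, 23, 2 and 3 such members from Prepuberty 1 to Tumor 2, and the median member had 4, 5, 5, 4, 16 and 4 Gpihbp1 UMIs. Just outside the rule stood 110, 145, 56, 54, 9 and 4 endothelial cells with no UMI of Gpihbp1, Ackr1 or Selp, and a further 55, 46, 22, 18, 6 and 2 that had Gpihbp1 together with Ackr1 or Selp.

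By the rule as given, capillary cells were a smaller share of the cells recovered in Tumor than in the gland. They numbered 239 and 339 in the Prepuberty libraries, 93 and 135 in the DCIS libraries, and 39 and 16 in the Tumor libraries. As a share of the cells kept, these were 5.45% and 9.41%, then 2.94% and 3.37%, then 0.871% and 0.614%. The means were 7.43% ± 2.80 (SD, n = 2), 3.15% ± 0.309 (SD, n = 2) and 0.743% ± 0.182 (SD, n = 2), and no library of 1 state overlapped another state. That is 2.35 times fewer in DCIS than in Prepuberty and 4.25 times fewer in Tumor than in DCIS, and each comparison reached an exact two-sided permutation p of 0.333, the smallest that 2 against 2 libraries allow. With members that carried stromal or epithelial markers left out, the order of the gland states turned, at 1.30% in Prepuberty and 1.61% in DCIS (difference 0.315 percentage points), and the difference of Tumor from Prepuberty shrank from -6.69 to -0.749 percentage points. Over the cells without Epcam alone, the shares were 7.20% and 10.2%, 6.62% and 5.90%, and 4.86% and 1.97%.

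Among endothelial cells the order differed. Members were 41.3% and 54.5% of endothelial cells in Prepuberty, 31.3% and 43.3% in DCIS, and 67.2% and 66.7% in Tumor. The Tumor 2 value rests on 16 of 24 cells, with a 95% Wilson interval of 46.7% to 82.0% that covers counting error only. With each cell reduced to 3000 UMIs, the Tumor 2 value was 35.3% and that of Tumor 1 was 72.5%, and the DCIS libraries were at 33.8% and 45.3%, so Tumor 2 then lay between them. Exact permutation p-values for the unreduced shares were 0.333 for Tumor against either state and 0.667 for DCIS against Prepuberty. Venous cells, taken by the same endothelial genes with Ackr1 or Selp and no Gpihbp1, numbered 174, 92, 126, 105, 4 and 2.

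**Figure D1:**
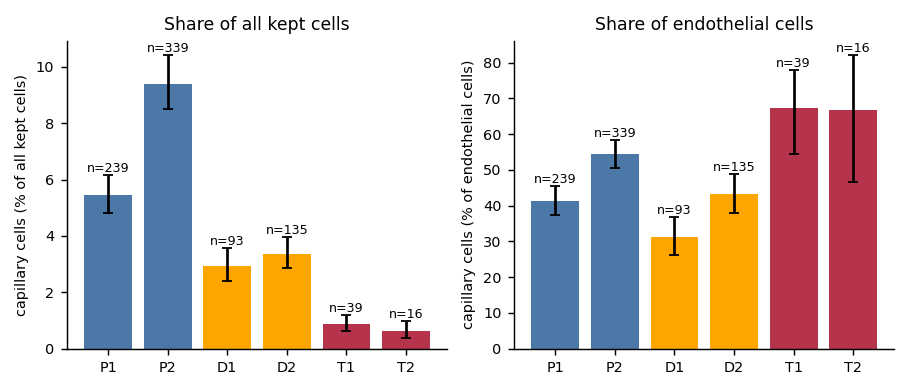
Gpihbp1-positive capillary cells in each library as a percent of all cells kept and as a percent of endothelial cells; P, D and T are Prepuberty, DCIS and Tumor with the library number, each bar is 1 library, the number of capillary cells stands above it and the error bars are 95% Wilson intervals for counting error. The share of cells kept runs from 9.41% in Prepuberty 2 down to 0.614% in Tumor 2, while the share of endothelial cells is highest in the Tumor libraries, where its intervals are widest.

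Depth set how firmly the states could be compared. The summed members held 2277960 and 4284569 UMIs in Prepuberty, 679591 and 1153992 in DCIS, and 288375 and 118459 in Tumor, and the median member held between 3133.5 UMIs in Tumor 2 and 12052 in Prepuberty 2. In Tumor 2 the 3 deepest of 16 cells gave 60.5% of the sum. No barcode was shared between members of any pair of libraries. The median share of mitochondrial UMIs in a member was 1.90% to 2.45% in the gland libraries and 3.33% and 4.795% in Tumor. Markers of other cell types also differed between the member sums. The 6 adipocyte markers summed to 377, 1572, 73.6 and 586 CPM in the gland libraries, with every one of the 6 at 0 in both Tumor libraries. Pericyte and smooth muscle markers went from 816 and 1126 CPM in Prepuberty to 255 and 493 CPM in DCIS and 93.6 and 92.9 CPM in Tumor (Tumor 2 had 8 of the 10 markers at 0). Fibroblast markers went from 447 and 396 CPM in Prepuberty to 102 and 92.7 CPM in DCIS and 55.5 and 16.9 CPM in Tumor. Macrophage markers stood at 70.2 and 29.6 CPM in Prepuberty, 132 and 110 CPM in DCIS, and 34.7 and 42.2 CPM in Tumor. Red cell markers were at 992 and 234, then 20.6 and 2536, then 3.47 and 16.9 CPM. Epithelial markers ranged from 24.7 to 119 CPM with no order by state.

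Capillary cells of Tumor differed from those of both gland states in 1050 and 1058 genes, and DCIS members differed from Prepuberty members in 1 gene. Counts were summed per library and 8039 genes were tested with edgeR's quasi-likelihood test, a gene counting as changed at a Benjamini-Hochberg adjusted p under 0.05. Against DCIS, 541 genes were higher and 509 lower in Tumor, 13.1% of the genes tested. Against Prepuberty, 599 were higher and 459 lower, 13.2%. For DCIS against Prepuberty the share was 0.0124%, although 935 genes (11.6%) had an unadjusted p under 0.05, where the Tumor comparisons had 29.9% and 29.1%, and DESeq2 called 22 higher and 12 lower. The Tumor comparisons share the Tumor libraries, so their counts are not independent of each other. Sums of 2 libraries can separate by their order alone, and the libraries did not overlap between Tumor and either gland state for 58.2% of all genes and between DCIS and Prepuberty for 50.1%. Under a limit of 5% mitochondrial UMIs in place of 10%, 854 of 7979 genes tested passed for Tumor against DCIS in place of 1050 of 8039 (823 in both, in the same direction), and 889 for Tumor against Prepuberty in place of 1058 (847 in both). Other settings moved the counts further, to 439 and 390 of 2536 genes tested with the library sums thinned to the smallest.

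**Figure D2:**
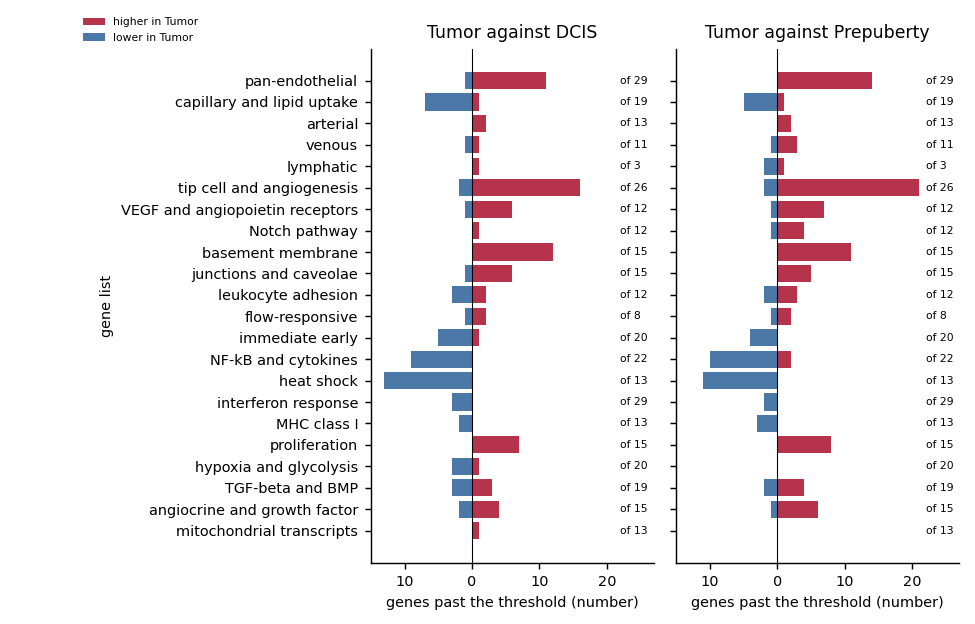
Genes of each list that rose (right) or fell (left) in Tumor capillary cells, against DCIS and against Prepuberty, as a count of genes past the adjusted threshold, with the number tested at the right of each list. The tip cell list leads on the right with 16 and 21 of 26 genes, and the heat shock list on the left with 13 and 11 of 13.

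From Prepuberty to DCIS, Col13a1 was the 1 gene past the threshold. It encodes a transmembrane collagen and lies on chromosome 10 from 61838236 to 61979108 (- strand, GRCm38). Library-normalised CPM (scaled between libraries by TMM, the trimmed mean of M-values, as for all levels from here on unless said otherwise) were 5.77 and 4.41 in Prepuberty and 93.9 and 96.7 in DCIS, a log2 difference of 4.25 (SE 0.51, edgeR adjusted p = 0.0436). It stood at 101 and 361 CPM in Tumor. The call was lost under 5 of 18 alternatives, among them leaving out Prepuberty 2, DCIS 1 or DCIS 2, and the adjusted p reached 0.567.

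Several further genes separated the gland states without passing the threshold. Aplnr, the receptor for apelin, was at 18.7 and 7.35 CPM in Prepuberty and 115 and 62.6 CPM in DCIS, a log2 difference of 2.82 (SE 0.45, edgeR adjusted p = 0.0704). Prdm1, a transcriptional repressor, went from 8.0 and 6.30 to 31.3 and 35.0 CPM, and the microtubule-associated Eml1 from 35.1 and 22.47 to 127 and 93.0 CPM, both at an adjusted p of 0.0704. Chac1, a glutathione-degrading enzyme of the stress response, read 40.4 and 34.9 then 165 and 116 CPM at an adjusted p of 0.066. In the other direction stood Notch3, a Notch receptor typical of pericytes, at 34.2 and 64.7 then 10.4 and 6.44 CPM (adjusted p = 0.0864), and Enpp2, which makes lysophosphatidic acid, at 84.4 and 176 then 13.9 and 34.9 CPM (adjusted p = 0.0993). Arhgdib, Ren1 and Sncg followed with log2 differences of -2.10, -3.01 and -2.07. Pericyte and fibroblast markers were also lower in the DCIS member sums than in the Prepuberty sums, and their part was not tested. None of the lists had a member past the threshold in this comparison.

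Tip cell and angiogenesis genes rose in Tumor. Of the 26 genes of that list, 16 rose and 2 fell against DCIS, with a median log2 difference of 1.80 where all genes had -0.07, and 21 rose and 2 fell against Prepuberty, with a median of 2.73 against -0.05. Without DCIS 2, 8 rose and 1 fell against DCIS.

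Apln, the secreted ligand apelin of sprouting endothelium, was nearly absent from the gland states and abundant in Tumor. It lies on chromosome X from 48025146 to 48034853 (- strand, GRCm38). It read 0 and 1.47 CPM in Prepuberty, 0 and 1.84 CPM in DCIS, and 410 and 479 CPM in Tumor. DCIS members held 2 Apln UMIs and Tumor members 183, a ratio in CPM of 359 with a counting interval of 98.0 to 2988 (edgeR adjusted p = 0.000112). Against Prepuberty the log2 difference was 8.71 (SE 0.51, adjusted p = 2.6e-05).

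Igfbp3, which binds insulin-like growth factors, was abundant in members of the Tumor state alone. It was at 30.2 and 52.9 CPM in Prepuberty, 46.9 and 75.5 CPM in DCIS, and 5965 and 3293 CPM in Tumor, with a log2 difference of 6.22 from DCIS (SE 0.49, edgeR adjusted p = 0.000133). Kcne3, a regulatory subunit of potassium channels, was at 1.78 and 3.36, 10.4 and 15.6, and 925 and 501 CPM, a log2 difference of 5.73 (SE 0.45, adjusted p = 0.000133). Esm1, the secreted proteoglycan endocan, read 28.0 and 18.5 CPM, then 88.7 and 55.2 CPM, then 783 and 324 CPM, and 1 of 93 cells gave 78.4% of its 51 UMIs in DCIS 1. Its log2 difference was 3.0 (SE 0.44, adjusted p = 0.00265) from DCIS and 4.62 (SE 0.46, adjusted p = 0.000207) from Prepuberty. None of these calls was lost under any of the 18 alternatives run. In Tumor 2, 1 cell gave 49.2% of the Apln UMIs and 51.5% of the Kcne3 UMIs.

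Other secreted factors joined them. Ptn, the heparin-binding growth factor pleiotrophin, was at 7.11 and 1.89 CPM in Prepuberty, 1.74 and 1.84 CPM in DCIS, and 1002 and 280. CPM in Tumor. Its ratio of Tumor to DCIS was 427 with a counting interval of 145 to 2079 from 326 and 3 UMIs (edgeR adjusted p = 0.000414), and 1 cell gave 65.8% of its UMIs in Tumor 2. Dkk2, a modulator of Wnt signalling, had no UMI in DCIS and stood at 52.2 and 133 CPM in Tumor, at least 43.2-fold higher by a floor of 3 counts over the DCIS libraries, and at least 14.9-fold with any 1 library left out. Mcam (CD146), an endothelial and pericyte adhesion molecule, went from 34.8 and 50.6 CPM in DCIS to 247 and 457 CPM in Tumor, with a log2 difference of 2.95 (SE 0.37, adjusted p = 0.00116).

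**Figure D3:**
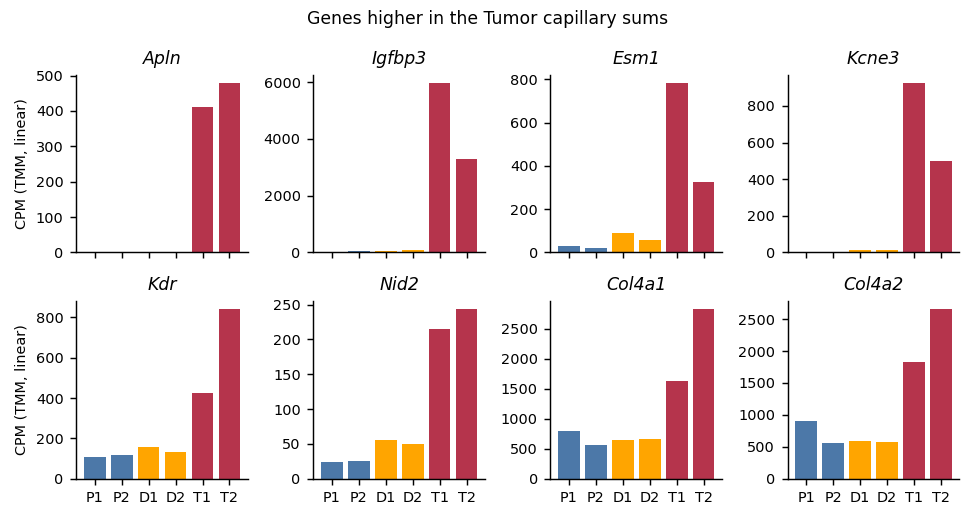
CPM of genes higher in Tumor capillary cells, in each of the 6 libraries on a linear axis; P, D and T are Prepuberty, DCIS and Tumor with the library number, and each bar is 1 library. All 8 genes have both Tumor bars above the 4 gland bars, and Apln is at 1.84 CPM or less in the gland and at 410 and 479 CPM in Tumor.

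Receptors of the VEGF pathway were higher in Tumor and one of its ligands was lower. Of 12 genes tested in the VEGF and angiopoietin list, 6 rose and 1 fell against DCIS, and 7 rose and 1 fell against Prepuberty, but without DCIS 2 none rose against DCIS (1 fell). Kdr, the main VEGF receptor of endothelium, on chromosome 5 from 75932827 to 75978458 (- strand, GRCm38), was at 109 and 116 CPM in Prepuberty, 156 and 133 CPM in DCIS, and 424 and 840. CPM in Tumor. The log2 difference from DCIS was 2.11 (SE 0.35, edgeR adjusted p = 0.00421, and 0.0648 without DCIS 2) and from Prepuberty 2.47 (SE 0.35, adjusted p = 0.00141).

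Flt1, the VEGF receptor that also acts as a decoy, was at 251 and 142, 558 and 331, and 859 and 1120. CPM, with a log2 difference of 2.33 from Prepuberty (SE 0.38, edgeR adjusted p = 0.00333, and 0.0509 without Prepuberty 2) and 1.15 from DCIS (adjusted p = 0.0671, not past the threshold). Nrp1, a VEGF co-receptor, was 1.73 higher than in DCIS on the log2 scale (SE 0.36, adjusted p = 0.0117), and Flt4, the receptor for Vegfc, 1.68 higher (SE 0.34, adjusted p = 0.01), with Flt4 at 26.6 and 23.7, 36.5 and 27.6, and 104 and 95.8 CPM. Both calls were lost without DCIS 2, that of Nrp1 also without Tumor 2 and that of Flt4 without Tumor 1. Vegfc itself had 2 UMIs in DCIS members and 23 in Tumor members, a ratio of 45.1 with a counting interval of 11.2 to 395, and its call was lost without DCIS 2 or Tumor 1 (adjusted p up to 0.149). Pgf, a ligand of Flt1, moved the other way. It stood at 605 and 647 CPM in Prepuberty and 824 and 723 CPM in DCIS, then at 93.9 CPM in Tumor 1 and 0 in Tumor 2, a log2 difference of -3.76 from DCIS (SE 0.65, adjusted p = 0.005, and 0.054 by DESeq2). Aplnr, which did not pass for DCIS against Prepuberty, was at 118 and 177 CPM in Tumor, 3.54 above Prepuberty on the log2 scale (SE 0.50, adjusted p = 0.00141), while its difference from DCIS was 0.72 (adjusted p = 0.321).

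Basement membrane genes rose with few exceptions. Of 15 tested, 12 rose and none fell against DCIS (median log2 difference 1.76), and 11 rose and none fell against Prepuberty (median 1.70). These counts are not separate from those of the tip cell list, since Col4a1, Col4a2, Lama4, Lamb1 and Nid2 rose against DCIS in both lists, and other lists share genes as well (Pgf in the tip cell and VEGF lists, Mcam in the tip cell and general endothelial lists). Without DCIS 2, 6 rose against DCIS. Col18a1, the collagen that yields endostatin, was at 78.2 and 55.2 CPM in Prepuberty, 92.2 and 57.1 CPM in DCIS, and 532 and 840. CPM in Tumor, a log2 difference of 3.21 from DCIS (SE 0.38, edgeR adjusted p = 0.000909). Lama4, a vascular laminin chain, followed at 30.6 and 28.1, 81.7 and 62.6, and 292 and 368 CPM, and Nid2, a nidogen that links laminin to collagen IV, at 24 and 25.4, 55.6 and 49.7, and 216 and 243 CPM. Col15a1 read 31.1 and 22.9, 64.3 and 77.3, and 223 and 295 CPM, and Lamb1 49.7 and 40.9, 130. and 105, and 358 and 361 CPM. None of the 15 genes passed for DCIS against Prepuberty. Sparcl1, a matricellular protein, had 2115 and 1650 CPM in Tumor against 379 and 189 CPM in DCIS.

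The 2 chains of collagen IV, the network collagen of every basement membrane, moved together. They are named here after their values were seen. Col4a1 was at 795 and 569 CPM in Prepuberty, 647 and 661 CPM in DCIS, and 1628 and 2821 CPM in Tumor, a log2 difference of 1.76 from DCIS (SE 0.34, edgeR adjusted p = 0.00875). Col4a2 was at 897 and 560., 596 and 580., and 1826 and 2652 CPM, a log2 difference of 1.93 (SE 0.34, adjusted p = 0.00523). Both calls were lost when either DCIS library was left out. The genes sit head to head on chromosome 8, Col4a1 from 11198423 to 11312826 (- strand) and Col4a2 from 11312805 to 11449287 (+ strand), so their annotated starts are 21 bases apart. The RefSeq window of Col4a2 from 250 bases before to 50 after its start, at chr8:11312555-11312854 (+ strand, GRCm38.p6), is shown because 78 of its bases, in capitals, also lie in the window of Col4a1 on the opposite strand.
Col4a2: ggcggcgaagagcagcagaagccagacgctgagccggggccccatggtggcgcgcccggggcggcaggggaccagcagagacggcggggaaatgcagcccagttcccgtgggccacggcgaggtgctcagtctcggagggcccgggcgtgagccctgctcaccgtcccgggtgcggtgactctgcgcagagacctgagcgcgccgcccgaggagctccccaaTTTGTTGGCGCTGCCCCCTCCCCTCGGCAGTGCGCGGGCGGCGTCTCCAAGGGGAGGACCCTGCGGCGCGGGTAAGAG

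Genes of capillary lipid uptake were lower in the Tumor sums, and this result depended on how deep cells were weighted. Of 19 tested in the capillary and lipid uptake list, 7 fell and 1 rose against DCIS, with a median log2 difference of -0.62, and 5 fell and 1 rose against Prepuberty, with a median of -0.36. When each cell was reduced to at most 3000 UMIs before summing, 14 genes could be tested and none fell against DCIS (1 rose, median -0.15), while 2 fell and 2 rose against Prepuberty (median 0.60).

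Fabp4, the fatty acid binding protein of capillaries and fat, on chromosome 3 from 10204088 to 10208576 (- strand, GRCm38), was at 12169 and 8318 CPM in Prepuberty, 16462 and 14232 CPM in DCIS, and 3958 and 3602 CPM in Tumor. Its log2 difference from DCIS was -2.02 (SE 0.32, edgeR adjusted p = 0.0038, and 0.183 with cells reduced to 3000 UMIs). The fatty acid translocase Cd36, on chromosome 5 from 17781690 to 17888801 (- strand), read 813 and 556, 1454 and 1209, and 254 and 413 CPM, also -2.02 from DCIS (SE 0.35, adjusted p = 0.005, and 0.343 with reduced cells). In both genes the Tumor libraries lay below all 4 gland libraries. Against Prepuberty, Cd36 did not pass (log2 difference -1.06, adjusted p = 0.0673), and its direction turned with reduced cells. Fabp4 did pass (-1.44, SE 0.32, adjusted p = 0.0149) but lost the call in 7 of 18 alternatives. Lpl, the lipase that Gpihbp1 binds, was at 887 and 617, 433 and 359, and 55.6 and 155 CPM, a log2 difference of -2.03 from DCIS (SE 0.45, adjusted p = 0.0156) and -2.95 from Prepuberty (SE 0.45, adjusted p = 0.00205). The call against DCIS was lost without DCIS 1, DCIS 2 or Tumor 1 and with reduced cells (adjusted p up to 0.285), and that against Prepuberty with reduced cells (0.0912). Lpl is made mainly by fat cells, and the adipocyte markers were at 0 in Tumor members. Their part in the result was not tested.

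Fabp5, a further fatty acid binding protein, and Rgcc, a cell cycle regulator that marks capillaries, fell by 1.40 and 1.25 on the log2 scale from DCIS to Tumor (edgeR adjusted p = 0.0188 and 0.0193). The Fabp5 call was lost in 4 of 18 alternatives (either DCIS library, Tumor 2 or reduced cells, adjusted p up to 0.327) and the Rgcc call in 5 of 18 (up to 0.758). For Rgcc the Tumor level of 240. and 302 CPM was close to the Prepuberty level of 370. and 318 CPM (log2 difference -0.36, adjusted p = 0.455). Kcna5, a potassium channel, and Lrp1, a lipoprotein receptor also abundant in stroma, had no UMI in Tumor members and were at least 7.90-fold and 3.31-fold lower than in DCIS, bounds that fell to 2.53 and 1.06 with 1 library left out. The Kcna5 call was lost without Tumor 1 and the Lrp1 call in 4 of 15 alternatives. Endothelial lipase, Lipg, was at 115 and 75.5 CPM in DCIS and had no UMI in Tumor, at least 12.6-fold lower (4.03-fold with 1 library left out). The gene of this list that rose was Aqp1, the water channel of capillary endothelium, at 116 and 81.7, 230. and 163, and 1061 and 1076 CPM (log2 difference from DCIS 2.45, SE 0.32, adjusted p = 0.00149).

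**Figure D4:**
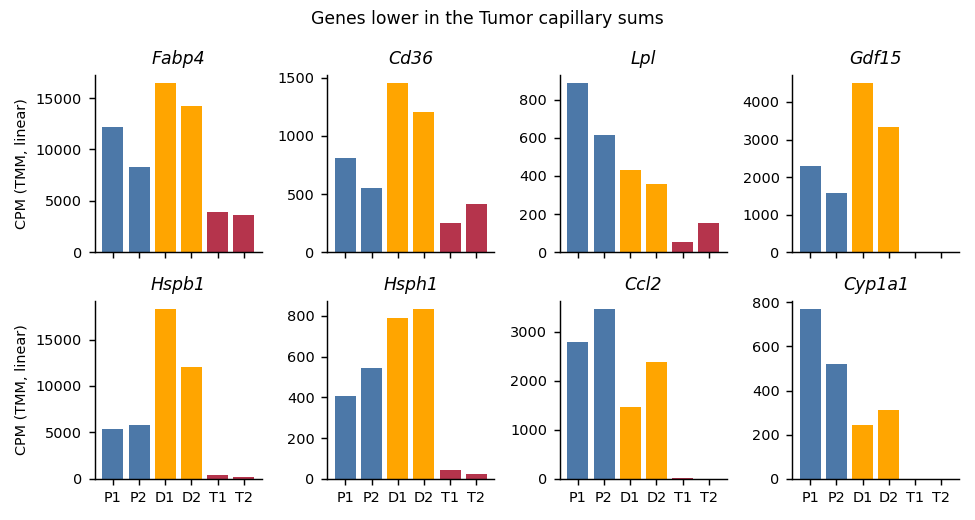
CPM of genes lower in Tumor capillary cells, in each of the 6 libraries on a linear axis; P, D and T are Prepuberty, DCIS and Tumor with the library number, each bar is 1 library, and Gdf15 and Cyp1a1 have no bar in Tumor because their counts there were 0. Hspb1 falls from 12051 CPM or more in DCIS to 456 CPM or less in Tumor, and Fabp4 and Cd36 stay detected in both Tumor libraries.

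Single members showed what lay behind the Tumor sums. These genes and cell groups were chosen after values were seen and carry no test. Fabp4 and Cd36 UMIs together outnumbered those of Igfbp3, Col4a1 and Col4a2 in 230 of 239, 329 of 339, 89 of 93 and 131 of 135 members of the gland libraries, or 95.7% to 97.1%. In Tumor 1 this held for 5 of 39 members (12.8%) and in Tumor 2 for 7 of 16 (43.8%). The 7 cells of Tumor 2 were shallow, with a median of 1619 UMIs against 7219 UMIs in its other members, and gave 9.31% of that library's summed UMIs. The 5 cells of Tumor 1 were not, with medians of 6281 and 5519 UMIs.

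The split in Tumor 2 followed depth. Its 8 members with at least 3000 UMIs held no Cd36 UMI, 10 Fabp4 UMIs, 65 Apln UMIs, 444 Igfbp3 UMIs and 68 Kcne3 UMIs. Its 8 shallower members held 56 Cd36 UMIs in 7 cells, 479 Fabp4 UMIs in 7 cells, 24 Hspb1 UMIs in 7 cells, no Apln or Kcne3 UMI, and 3 Igfbp3 UMIs. In Tumor 1, Cd36 was found in 5 of 39 members (73 UMIs), Igfbp3 in 35 (1715 UMIs) and Apln in 20 (118 UMIs).

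Shares of cells at a fixed depth leave out the shallow cells. With 3000 UMIs drawn from each member that had them (199, 320, 77, 120, 33 and 8 members from Prepuberty 1 to Tumor 2), Cd36 was found in 76.4%, 67.8%, 79.2%, 76.7%, 12.1% and 0% of members. The last value is 0 of 8 cells, which allows up to 37.5% of such deeper cells to show a UMI at this depth. It does not cover the shallower Tumor 2 members, 7 of which held Cd36. Cells without any endothelial gene carried Cd36 in 0.4% to 5.5% of cells at the same depth. Igfbp3 was found in 5.5%, 7.5%, 9.1%, 10.0%, 87.9% and 100% of members, and in 2.51%, 3.07%, 7.54%, 4.93%, 8.23% and 6.32% of non-endothelial cells of the same libraries. Apln was found in at most 0.3% of gland members and in 42.4% and 62.5% of Tumor members, with 0.6% or less in non-endothelial cells.

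**Figure D5:**
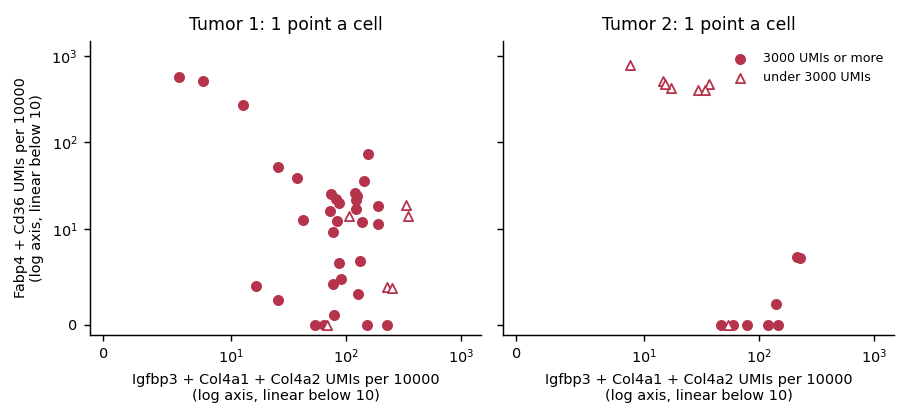
Each point is 1 capillary cell of a Tumor library, with its UMIs of Igfbp3, Col4a1 and Col4a2 together, scaled to its total UMIs, on the horizontal axis and those of Fabp4 and Cd36 together, scaled likewise, on the vertical axis (both log axes, linear below 10). Open triangles are cells under 3000 UMIs and filled circles are deeper cells. The 7 cells of Tumor 2 where Fabp4 and Cd36 lead are all under 3000 UMIs, while the 5 such cells of Tumor 1 are deeper, and 2 of these reach the same heights as the 7.

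Heat shock genes fell as a whole. All 13 of the list fell against DCIS (median log2 difference -2.63) and 11 of 13 against Prepuberty (median -2.15), none rose, and over all alternatives 9 to 13 fell against DCIS. Hspb1, a small heat shock protein, was at 5355 and 5778 CPM in Prepuberty, 18249 and 12051 CPM in DCIS, and 456 and 192 CPM in Tumor, a log2 difference of -5.51 from DCIS (SE 0.48, edgeR adjusted p = 0.000182). In cells without endothelial genes, Hspb1 was at 605 and 731, 3428 and 3733, and 474 and 237 CPM, so it was also lower in the Tumor libraries there. Hspa1b, an inducible Hsp70, was at 264 and 324, 704 and 973, and 24.3 and 7.37 CPM (log2 difference -5.51, SE 0.47, adjusted p = 0.000181). Its near-identical copy Hspa1a shares reads with it, so the division between the pair is uncertain. Hsph1, the Hsp110 chaperone, on chromosome 5 from 149614287 to 149636376 (- strand), was at 406 and 546, 789 and 832, and 45.2 and 22.1 CPM (log2 difference -4.47, SE 0.40, adjusted p = 0.000187). Heat shock genes respond to handling of tissue, dissociation differed between gland and tumour by the study's methods, and the part of dissociation cannot be told apart from state.

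The mitochondrial chaperonin pair Hspe1 (Hsp10) and Hspd1 (Hsp60), named here after their values were seen, fell together. Hspe1 was at 1471 and 1482 CPM in Prepuberty, 2224 and 2212 CPM in DCIS, and 327 and 309 CPM in Tumor, a log2 difference of -2.80 from DCIS (SE 0.29, edgeR adjusted p = 0.000413). Hspd1 was at 334 and 394, 511 and 533, and 108 and 110. CPM (log2 difference -2.26, SE 0.30, adjusted p = 0.00178). They lie on opposite strands of chromosome 1. RefSeq starts Hspe1 at 55088148 (+ strand) and gives Hspd1 starts at 55087932 and 55088243 (- strand), 216 and 95 bases away. The heat shock element, the binding motif of heat shock factor, was searched as GAANNTTCNNGAA and TTCNNGAANNTTC, the reverse complement. It was found in 198 of 32851 mouse RefSeq promoter windows (0.603%) and in those of 3 of the 10 heat shock list genes that had a window, Hspd1, Hspe1 and Hsph1. The Hspd1 and Hspe1 matches are the same bases, since the Hspd1 window from the start at 55087932 shares 285 bases with that of Hspe1. The windows of Hspe1 at chr1:55087898-55088197 (+ strand) and Hsph1 at chr5:149636266-149636565 (- strand, both GRCm38.p6) are shown because they carry the motif and their genes fell together. Capitals mark the matches, of which Hspe1 has 2 that overlap. A match of letters does not show that the factor binds there.
Hspe1: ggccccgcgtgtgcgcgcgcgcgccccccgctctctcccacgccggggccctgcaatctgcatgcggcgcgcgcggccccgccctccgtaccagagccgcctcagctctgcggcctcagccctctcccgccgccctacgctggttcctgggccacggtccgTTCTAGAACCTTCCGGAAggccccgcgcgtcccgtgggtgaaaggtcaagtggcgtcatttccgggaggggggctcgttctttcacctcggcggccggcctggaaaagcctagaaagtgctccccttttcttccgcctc
Hsph1: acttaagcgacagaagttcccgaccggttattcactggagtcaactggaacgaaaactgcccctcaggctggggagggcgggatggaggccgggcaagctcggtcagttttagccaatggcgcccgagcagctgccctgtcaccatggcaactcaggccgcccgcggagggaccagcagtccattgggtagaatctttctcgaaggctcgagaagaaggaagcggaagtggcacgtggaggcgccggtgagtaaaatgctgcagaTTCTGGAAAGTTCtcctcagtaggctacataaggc

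Chemokines and NF-kB genes fell as well. Of 22 tested in that list, 9 fell and none rose against DCIS, and 10 fell and 2 rose (Socs3 and Cxcl12) against Prepuberty. Ccl2, which attracts monocytes, was at 2788 and 3461 CPM in Prepuberty, 1466 and 2392 CPM in DCIS, and 13.9 and 0 CPM in Tumor, a log2 difference of -7.70 from DCIS (SE 0.61, edgeR adjusted p = 0.000133). Non-endothelial cells held more Ccl2 than the members in every library, at 6907 and 10129, 3545 and 2804, and 119 and 23 CPM. The part of RNA from outside the members in the gland values was not tested. Cxcl1 and Cxcl2, which attract neutrophils, were at 1028 and 1433 and at 543 and 806 CPM in DCIS, against 52.2 and 0 and 17.4 and 0 CPM in Tumor (log2 differences -5.23 and -5.87, adjusted p = 0.00101 and 0.000291). In DCIS 1, 1 of 93 cells gave 53.0% of the Ccl2 UMIs and 47.0% of the Cxcl1 UMIs. Ccl7 had 259 UMIs in DCIS members and 1 in Tumor members, a ratio of 66.0 with a counting interval of 11.7 to 2616. Traf1, an adaptor of TNF receptors, went from 137 and 94.8 CPM to 3.48 and 7.37 CPM.

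Some of the deepest falls were in genes with no UMI at all in the capillary members of either Tumor library. Gdf15, a secreted stress-induced factor of the TGF-beta family, on chromosome 8 from 70629393 to 70632456 (- strand, GRCm38), was at 2310 and 1576 CPM in Prepuberty and 4504 and 3339 CPM in DCIS. Tumor members were at least 528-fold lower than DCIS members by a floor of 3 counts over the Tumor libraries, and at least 169-fold with any 1 library left out. At 3000 UMIs a cell, Gdf15 was found in 79.2% to 82.9% of gland members and in 8.3% to 14.3% of non-endothelial gland cells. In Tumor it was found in 0 of 33 and 0 of 8 members, which allows shares with a UMI at this depth of up to 9.09% and 37.5%, and in 3.84% and 2.30% of non-endothelial cells. Cyp1a1, the detoxifying enzyme induced by the aryl hydrocarbon receptor, on chromosome 9 from 57687928 to 57703824 (+ strand), was at 768 and 519 CPM in Prepuberty and 245 and 312 CPM in DCIS, and at least 40.8-fold lower in Tumor than in DCIS (13.1-fold with 1 library left out). Chchd10, a mitochondrial protein, was at 843 and 1552 and at 1064 and 827 CPM and at least 128-fold lower (41.1-fold with 1 library left out). Ampd3, an AMP deaminase, was at 137 and 180. CPM in DCIS and at least 23.3-fold lower (7.46-fold with 1 library left out). The receptor kinase Mertk was at least 8.07-fold lower than in DCIS (2.59-fold with 1 library left out).

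Genes typical of other cells were also among those at 0 in Tumor. Cfd and Car3, made in quantity by adipocytes, were at 66.1 and 531 and at 73.0 and 215 CPM in DCIS, and at least 52.2-fold and 23.4-fold lower in Tumor, bounds that fell to 9.32 and 7.52 with 1 library left out. The Cfd call was lost without DCIS 2, Tumor 1 or Tumor 2, and the Car3 call without Tumor 1. The adipocyte gene Retn, the pericyte genes Pdgfrb and Agtr1a and the renin gene Ren1 were at least 15.4-fold, 15.6-fold, 12.5-fold and 8.71-fold lower than in Prepuberty, and the macrophage gene Cd68 at least 15.2-fold lower than in DCIS. With 1 library left out these bounds fell to 4.94, 5.01, 4.01, 2.79 and 4.88. The Cd68 call was lost without any 1 of the 4 libraries compared, that of Retn in 6 of 17 alternatives, and those of Pdgfrb, Agtr1a and Ren1 without Tumor 1 (the latter pair also without Tumor 2). The Ren1 call was lost by DESeq2 as well. Rgs5, abundant in pericytes, was at 603 and 676, 236 and 416, and 41.7 and 58.9 CPM (log2 difference from DCIS -2.76, SE 0.41, edgeR adjusted p = 0.00288). With members that carried stromal or epithelial markers left out, 693 of 4823 genes tested, in place of 1050 of 8039, passed the threshold for Tumor against DCIS, of which 615 were in both sets with the same direction.

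On the side of the increases, several genes had few or no UMIs in the DCIS members. AU021092 had no UMI in the members of any of the 4 gland libraries and stood at 125 and 177 CPM in Tumor, at least 78.5-fold higher than in DCIS and at least 331-fold higher than in Prepuberty (27.2-fold and 106-fold with 1 library left out). Ms4a6d, a membrane-spanning protein, had 1 UMI in DCIS and 89 in Tumor members, a ratio of 349 with a counting interval of 61.1 to 13950. Tmem150c and 4930502E18Rik, likewise without a UMI in gland members, were at 34.8 and 36.8 and at 52.2 and 29.5 CPM in Tumor. Nox4, an NADPH oxidase, had 2 UMIs in DCIS and 21 in Tumor, a ratio of 41.2 with a counting interval of 10.1 to 363. Against DCIS, the calls of Nox4 and Tmem150c were lost without either DCIS library, and that of 4930502E18Rik without DCIS 2 and by DESeq2. The long noncoding RNA 9230102K24Rik had 1 UMI in DCIS and 13 in Tumor. Samsn1, Cmklr1, Col27a1, Ccnjl and Bbs9 had no DCIS UMI and 10 to 12 Tumor UMIs each, but 4, 8, 26, 4 and 19 UMIs in Prepuberty, and each call against DCIS was lost when a DCIS library was left out. Tacr1, a tachykinin receptor, had no Prepuberty UMI and 23 UMIs in Tumor members, which puts the Tumor level at least 127-fold above Prepuberty, or 40.8-fold with 1 library left out.

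Cell cycle genes rose in Tumor, on few cells. Of 15 proliferation genes tested, 7 rose against DCIS and 8 against Prepuberty and none fell, but none passed without DCIS 2 and 2 passed without Tumor 2. Birc5 (survivin) had 6.96 and 6.44 CPM in DCIS against 52.2 and 177 CPM in Tumor (log2 difference 3.93, SE 0.75, edgeR adjusted p = 0.0081), and all 24 of its Tumor 2 UMIs came from 1 cell. Hmgb2, a chromatin protein high in dividing cells, was at 71.3 and 81.0 then 226 and 516 CPM (log2 difference 2.22, adjusted p = 0.00822), and the kinase Cdk1 at 15.7 and 8.29 then 80.0 and 51.6 CPM (log2 difference 2.62, adjusted p = 0.0245). Stmn1, a microtubule regulator, was 3.0 higher on the log2 scale (adjusted p = 0.00522). Without DCIS 2 each of these 4 calls was lost, and without Tumor 2 those of Birc5, Hmgb2 and Cdk1. The Hmgb2 and Cdk1 calls were also lost without DCIS 1. That of Cdk1 was lost without Tumor 1 and with all 3 endothelial markers required as well. The Stmn1 call was also lost with library sums thinned to the smallest and with cells reduced to 3000 UMIs.

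Of the Notch pathway, which restrains tip cells, 1 of 12 genes rose against DCIS, where 6.73% of all genes rose. Against Prepuberty 4 rose and 1 fell (Notch3), where 7.45% of all genes rose and 5.71% fell. Nrarp, a feedback regulator induced by Notch, went from 11.5 and 19.5 CPM in Prepuberty and 22.6 and 12.9 CPM in DCIS to 254 and 295 CPM in Tumor (log2 difference from DCIS 4.02, SE 0.38, edgeR adjusted p = 0.000286). The ligand Dll4 was at 60.0 and 65.7, 148 and 115, and 285 and 192 CPM, 1.95 above Prepuberty (SE 0.29, adjusted p = 0.0017) and 0.90 above DCIS (adjusted p = 0.0645). Notch4 was 1.41 higher than in Prepuberty (adjusted p = 0.0168), a call lost in 8 of 18 alternatives.

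Pan-endothelial and junction genes rose in part, and flow genes were mixed. Of 29 pan-endothelial genes outside the rule, 11 rose and 1 fell (Sox17) against DCIS, a number that dropped to 2 risen without DCIS 2. Clec14a, an endothelial lectin, went from 22.6 and 32.2 CPM in DCIS to 146 and 228 CPM in Tumor (log2 difference 2.67, SE 0.38, edgeR adjusted p = 0.00214), and the phosphatase Ptprb rose by 2.36 (adjusted p = 0.00763). Of 15 junction and caveola genes 6 rose and 1 fell. Plvap, which forms the diaphragms of fenestrae and caveolae, was at 131 and 110., 363 and 182, and 1196 and 737 CPM, a log2 difference of 1.85 from DCIS (SE 0.38, adjusted p = 0.0121). Cav2, a caveolin, rose by 1.59 (adjusted p = 0.00482), and Klf2, a transcription factor induced by flow, by 1.74 (adjusted p = 0.0202). Of 8 flow-responsive genes tested, 2 rose (Aqp1 and Klf2) and 1 fell (Txnip) against DCIS, and likewise against Prepuberty. The Cav2 call was lost without either DCIS library and with cells reduced to 3000 UMIs, those of Klf2 and Plvap without DCIS 2 or Tumor 1, and that of Ptprb without DCIS 2 or Tumor 2. The Klf2 call was also lost with Gpihbp1 required at 2 or more UMIs. The venous gene Vwf was at 4.89 and 0, 17.4 and 10.1, and 90.4 and 95.8 CPM (log2 difference from DCIS 2.83, SE 0.82, adjusted p = 0.046), a call lost in 7 of 17 alternatives.

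Few immune presentation and hypoxia genes passed the threshold. Of 29 interferon response genes none rose and 3 fell against DCIS (Cxcl9, Rsad2 and Oasl1). Of 13 MHC class I genes 2 fell against DCIS, H2-Q7 and H2-Q4, with a median log2 difference of -1.29 where all genes had -0.07. Of these 13 genes, 9 had an unadjusted edgeR p under 0.05, where 29.9% of all genes did. Against Prepuberty 3 fell (Tap2, H2-Q4 and Tapbp), with a median of -1.06. Of 20 hypoxia and glycolysis genes, 1 rose (Epas1) and 3 fell (Ndrg1, Ddit4 and Slc2a1) against DCIS, and none passed against Prepuberty. The TGF-beta and BMP list had 3 risen and 3 fallen of 19, the immediate early list 1 risen and 5 fallen of 20, and the arterial list 2 risen of 13 (Gja4 and Stmn2). All these counts are to be read against 6.73% of all genes higher and 6.33% lower than in DCIS, and 7.45% higher and 5.71% lower than in Prepuberty.

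Venous endothelial cells gave the nearest comparison, for DCIS against Prepuberty alone, since Tumor 1 and Tumor 2 held 4 and 2 venous cells. The difference between the capillary and the venous change from Prepuberty to DCIS was tested in 8386 genes, with the library as a block, and 5 genes passed, 0.0596% of those tested (652 genes, 7.77%, had an unadjusted p under 0.05). Lrg1, a secreted glycoprotein of inflamed and venous endothelium, was at 65.0 and 124 CPM in Prepuberty and 432 and 213 CPM in DCIS capillary cells, but at 1469 and 1967 then 1488 and 1166 CPM in venous cells (both scaled by TMM over these 8 sums together), an interaction of 2.11 on the log2 scale (SE 0.24, edgeR adjusted p = 0.00754). Scd1, Fgl2 and Hbb-bs also passed. Without the cells that carried stromal or epithelial markers, 0 of 5985 genes passed by edgeR, with 427 at an unadjusted p under 0.05.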

How the data were processed

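Single-cell 3′ libraries from 6 samples were examined. The values are the deposited UMI counts, which the authors made with Cell Ranger 3.0.2 on mm10 (per the file headers) and did not normalise. Labels and methods disagree on the digestion of the tumours, on the kit of Tumor 2 (v2 or v3) and on the sequencer. The members, gene lists and tests were chosen with earlier results of these data known. Counts of members were summed per library, where 10 or more cells were required. All 6 sums were fitted in 1 model with edgeR 4.0.16 (R 4.3.3; TMM, filterByExpr, quasi-likelihood F test, Benjamini-Hochberg adjustment, threshold 0.05). DESeq2 1.42.0 served as an alternative. The 8 genes of the rule stayed in the library sizes and were not tested. Cells and shares were handled in Python 3.11.15 with scipy 1.17.1, and doublet scores came from Scrublet in scanpy 1.11.5. No doublets were removed from the reported values. Shares of cells were compared over libraries by exact permutation.

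Genes were named by rule: the 12 largest increases and decreases per comparison among changed genes whose libraries did not overlap and that exceeded the non-endothelial cells, or the 5 of smallest p where fewer than 5 passed, and up to 4 changed genes per list. Some genes that the rule names are not reported here. Members of a list beyond these, and cell-level values, were chosen after values were seen. Where a state had 0 counts, fold bounds used a floor of 3 counts over the group, and with 1 to 3 counts a ratio with an exact 95% interval was given. Intervals and floors cover counting error only. The test was checked on simulated data with 200 genes changed 4-fold, drawn from the more abundant genes alone. It recovered 96.5% of them with 15 false calls for DCIS against Prepuberty (7614 genes run), 86.5% with 6 false calls for Tumor against DCIS (7537 genes) and 89.5% with 5 false calls for Tumor against Prepuberty (7571 genes). Recovery of genes at low levels was not tested. Replicate sums differed beyond sampling noise in every state. Gene positions are those of GENCODE vM21 on GRCm38, and promoter windows those of RefSeq on GRCm38.p6.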

Additional observations from a re-analysis of the deposited data

Results flagged for a closer look

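The change from Prepuberty to DCIS differed between capillary and venous cells by edgeR's test of the interaction for the following genes. For Fgl2, a prothrombinase-like secreted protein, the capillary sums were at 61.6 and 18.1 CPM in Prepuberty and 3.23 and 6.86 CPM in DCIS, and the venous sums at 97.6 and 25.4 then 163 and 143 CPM (scaled by TMM over the 8 sums together, as are the levels of the next genes), an interaction of -4.15 on the log2 scale (SE 0.39, adjusted p = 0.00342). Scd1, a fatty acid desaturase abundant in fat cells, had an interaction of 3.29 (SE 0.39, adjusted p = 0.00754), with capillary values of 403, 460., 150. and 788 CPM and venous values of 35.8, 56.2, 1.32 and 8.65 CPM. Adipocyte markers summed to 377, 1572, 73.6 and 586 CPM, scaled to summed UMIs alone, in the capillary sums, and their part was not tested. Hbb-bs, a beta globin of red cells, had an interaction of -4.30 (SE 0.49, adjusted p = 0.00754), with capillary values of 514, 95.2, 12.9 and 1202 CPM and venous values of 26.8, 2.72, 44.8 and 856 CPM, so that its libraries of 1 state lay far apart. Globin genes are near-identical copies of each other. Lrg1 (interaction 2.11, SE 0.24, adjusted p = 0.00754) is described above, and its capillary values were higher in both DCIS libraries than in both Prepuberty libraries.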

How the results depend on the processing

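Over 2826 values of single named genes under the alternatives, 2586 kept direction and side of the threshold, 185 lost and 53 gained the threshold, and 2 turned direction, both for Tumor against Prepuberty with each cell reduced to at most 3000 UMIs, an alternative chosen after seeing the data: Cd36 to 0.0091 and Rgcc to 0.60 on the log2 scale. The count of genes changed from Prepuberty to DCIS, 1, became 34 by DESeq2, 274 with no filter on low counts, 2 in a fit of the 4 gland libraries, 12 with the highest doublet scores removed, 3 with all 3 endothelial markers required, 11 with Gpihbp1 at 2 or more UMIs, 5 with cells reduced to 3000 UMIs, 0 with the library sums thinned to the smallest or with cells of stromal or epithelial markers left out, and 0 to 17 without 1 library. The count for Tumor against DCIS, 1050, became 439 with thinned sums, 693 without stromal or epithelial markers, 508 with cells reduced to 3000 UMIs and 338 to 804 without 1 library. Of those changed with thinned sums, stromal cells left out and reduced cells, 393, 615 and 453 were also changed in the reported fit with the same direction. For Tumor against Prepuberty, 1058 became 1653 with no filter, 390 with thinned sums, 624 without stromal or epithelial markers, 527 with reduced cells and 468 to 857 without 1 library. With no filter the split was 610 higher and 906 lower against DCIS, and 690 and 963 against Prepuberty. The interaction count, 5, became 131 with no filter, 13 with thinned sums, 0 without stromal or epithelial markers and 1 to 152 without 1 library.

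A replicate block gave 128 genes for DCIS against Prepuberty, 608 higher and 605 lower for Tumor against DCIS, and 653 and 536 for Tumor against Prepuberty. Same-numbered libraries did not deviate together in all pairs of states (correlations 0.259, -0.0312 and 0.0115), so the numbers were not taken as pairing. The Tumor interactions were not run, since neither Tumor library held 5 or 10 venous cells, and a minimum of 5 member cells admitted no further library.

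The difference in share of cells kept, Tumor minus DCIS, of -2.41 percentage points was -2.05 with all 3 markers, -1.06 without stromal or epithelial markers, -1.95 with 2 or more Gpihbp1 UMIs, -2.85 over non-epithelial cells and -2.63 to -2.19 without 1 library. Tumor minus Prepuberty (-6.69) was -0.749 without stromal or epithelial markers and -8.67 to -4.70 without 1 library. DCIS minus Prepuberty (-4.27) was -6.25 to -2.29 without 1 library and turned to 0.315 without stromal or epithelial markers. Of endothelial cells, DCIS minus Prepuberty (-10.6) turned to 2.90 under that setting and was -17.2 to -4.06 without 1 library. Tumor minus DCIS (29.7) was 40.9 under a mitochondrial limit of 5%, 14.4 at 3000 UMIs a cell and 23.7 to 35.6 without 1 library. Tumor minus Prepuberty (19.0) was 30.1 under that limit, 38.5 without stromal or epithelial markers, 7.77 at 3000 UMIs a cell and 12.5 to 25.6 without 1 library. The causes were not tested. With 16 members in Tumor 2, genes under about 3 UMIs there could not be told from absence.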
